A study of Mus musculus with 40 samples.

Results

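The genes of cytochrome P450 families 1 to 3 were measured in mouse liver. They were taken as every probe set of the array with 1 annotated symbol that begins with Cyp1, Cyp2 or Cyp3, a subfamily letter and a gene number. Log2 4 had to be reached on 3 or more arrays of at least 1 group, and of several such probe sets of a gene the one with the highest mean over all arrays was used. The array carried 43 such genes, of which 31 reached the minimum and are described here, among the 9695 genes tested. The other 12 did not reach it and have no values below: Cyp1a1, Cyp1b1, Cyp2b13, Cyp2b19, Cyp2c39, Cyp2c65, Cyp2d34, Cyp2j11, Cyp2j13, Cyp2s1, Cyp3a16 and Cyp3a44. Their highest values on any array ran from log2 2.35 (Cyp2s1) to 6.55 (Cyp2c65, which did not reach the minimum on 3 arrays of a group), and that of Cyp1a1, the classical target of the aryl hydrocarbon receptor, was 4.26. Cyp2g1 was just inside, with 3 arrays of 1 group at log2 4.06, 4.66 and 4.87. A pair of further probe sets carried several P450 symbols each and was not used.

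Cytochromes P450 of these families are heme enzymes of the endoplasmic reticulum that add oxygen to drugs, dietary chemicals, steroids, fatty acids and bile acids, and hepatocytes are their main site. Many are set by nuclear receptors and by the aryl hydrocarbon receptor (AhR), which acts on Cyp1 genes. The constitutive androstane receptor (CAR, gene Nr1i3) acts on Cyp2b and several Cyp2c genes, the pregnane X receptor (PXR, gene Nr1i2) acts on Cyp3a genes, and sex hormones and the liver's circadian clock set the level of others. Nrf2, encoded by Nfe2l2, is a transcription factor held in check by Keap1 that drives the conjugating and antioxidant enzymes which act on the products of P450 oxidation. D3T, a dithiolethione, and CDDO-Im, a synthetic triterpenoid, both release Nrf2 from Keap1.

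Liver RNA came from 40 male C57BL/6J mice in 10 groups of 4, with 1 array and 1 mouse per value. Nrf2-null and Wt mice, 12 weeks old and fed AIN-76A diet without ethoxyquin, each received D3T at 300 μmol/kg b.wt., CDDO-Im at 3, 10 or 30 μmol/kg b.wt. or a vehicle of Cremophor EL, DMSO and PBS. They were given by gavage every other day over 5 days, in 3 treatments, and the livers were taken 24 hours after the last one. The Nrf2-null mice lack Nrf2 in every tissue, not in the liver alone, and were bred from heterozygous mice.

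Values are log2 intensities, and they do not rank the transcripts of different probe sets against each other. Nfe2l2 read 2.72 to 3.10 in the 20 Nrf2-null mice and 10.77 to 11.75 in the 20 Wt mice (p = 0.029 by an exact two-sided permutation test between the vehicle groups, which with 4 mice each cannot give less). This is the probe set of the gene with the highest mean. A second one read 5.96 to 7.47 in Nrf2-null mice and 4.49 to 7.10 in Wt mice and showed no loss, and where it lies relative to the disrupted part of the gene is not given in the sources used here. Nqo1, the quinone reductase that is a standard target of Nrf2, was higher in Wt liver with D3T (a log2 change of 2.54, SE 0.32, adjusted p = 1.4e-05), with 10 μmol/kg CDDO-Im (2.31, 1.6e-05) and with 30 μmol/kg CDDO-Im (4.09, 7.6e-11). Adjusted p-values throughout are from limma, in 1 fit over the 10 groups with Benjamini-Hochberg adjustment over the 9695 genes of a comparison. A gene is said to have risen, fallen or changed, or to be called, when its adjusted p was under 0.05. Hepatocyte markers were all measured (8 of 8), with a summed level of log2 18.13 to 18.48 in Nrf2-null mice and 18.24 to 18.41 in Wt mice, while none of the 5 lymphocyte markers reached the minimum. In whole liver, fewer cells of a type and less RNA per cell cannot be told apart. Nrf2-null D3T replicate 4 stood apart from its group, with a median correlation of 0.959 to the others where every other array had 0.973 or more. A clock score, the mean of 7 genes that peak in the evening (Dbp and Per2 among them) minus that of 5 that peak in the morning (Arntl among them), differed between groups. It averaged 2.78 ± 0.81 with 10 μmol/kg CDDO-Im and −0.25 ± 0.83 with D3T in Wt liver, against −2.76 ± 0.14 with vehicle (SD, n = 4 each). Nrf2-null vehicle replicate 1 had a score of 3.08, and the other Nrf2-null vehicle mice lay between −3.31 and −2.46. The animal numbers of the D3T and 30 μmol/kg mice lie in another range than those of the other groups, and whatever that range stands for cannot be told apart from the treatment.

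The promoters of 4 members on which the results turn are shown. Cyp2b9 and Cyp2b10 are close relatives that were unlike between the genotypes. Cyp2c38 rose with D3T, and Cyp3a11 differed between the genotypes in its response. Each is the 250 bases before the annotated start, from RefSeq on build GRCm38.p6, with matches to the searched motifs in capitals. Cyp2b9 and Cyp2b10 both lie on chromosome 7 (chr7:26173159-26173408 and chr7:25897408-25897657, both on the plus strand), Cyp2c38 lies on chromosome 19 (chr19:39463076-39463325, minus strand) and Cyp3a11 on chromosome 5 (chr5:145879855-145880104, minus strand).
Cyp2b9: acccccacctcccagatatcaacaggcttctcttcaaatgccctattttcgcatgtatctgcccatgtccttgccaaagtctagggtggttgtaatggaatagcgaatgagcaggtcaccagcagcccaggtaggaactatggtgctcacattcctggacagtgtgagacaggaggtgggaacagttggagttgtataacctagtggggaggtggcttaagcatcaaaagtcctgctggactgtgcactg
Cyp2b10: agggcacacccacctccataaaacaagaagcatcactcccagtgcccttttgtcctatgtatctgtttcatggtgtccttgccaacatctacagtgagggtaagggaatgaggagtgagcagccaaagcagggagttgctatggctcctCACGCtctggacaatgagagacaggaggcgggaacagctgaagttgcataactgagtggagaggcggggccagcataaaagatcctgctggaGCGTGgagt
Cyp2c38: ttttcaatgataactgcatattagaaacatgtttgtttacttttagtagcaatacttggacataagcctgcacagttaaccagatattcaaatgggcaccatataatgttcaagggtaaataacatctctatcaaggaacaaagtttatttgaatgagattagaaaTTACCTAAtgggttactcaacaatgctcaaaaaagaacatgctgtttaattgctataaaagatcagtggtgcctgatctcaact
Cyp3a11: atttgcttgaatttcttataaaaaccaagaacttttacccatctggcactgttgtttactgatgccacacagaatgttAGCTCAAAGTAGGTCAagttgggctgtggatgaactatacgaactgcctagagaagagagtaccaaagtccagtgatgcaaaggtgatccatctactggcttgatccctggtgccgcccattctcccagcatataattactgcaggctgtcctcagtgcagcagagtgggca
Cyp2b9 and Cyp2b10 were identical at 187 of 262 aligned columns (71.4%), and Cyp2b9 and Cyp3a11 at 51.8%. A promoter was found for 24 of the 31 members, 25 promoters in all, and both strands were searched. The core of the xenobiotic response element, GCGTG, to which the AhR binds, was in 3 of the 25 (Cyp2b10, Cyp2c68 and Cyp2j9) and in 28.2% of the 32851 promoters of the table. The D-box, bound by clock output factors, was searched as TTANGTAA with any base at N. This form was in Cyp2c38, as TTACCTAA, and in 2.06% of all promoters. Whether clock output factors bind the form in Cyp2c38 was not tested. The E-box CACGTG was in Cyp2j6 and in 6.02%. A DR4 pair of half-sites, of the kind that CAR and PXR bind, was in Cyp3a11 and in 0.103%. The core of the antioxidant response element, TGACNNNGC, was in 0 of the 25 and in 10.2% of all promoters. None of these matches shared letters with another. They describe the letters of these windows and nothing of binding in these livers.

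Most members sat high on the array scale. The median over the 40 arrays was at log2 13 or more for 17 of the 31 members and at 14 or more for 12 of them, where 512 and 238 of all 9695 genes reached those marks, and the highest value of any gene on any array was 16.74. Members spread over groups about as widely as other genes did: the range of the 10 group means had a median of 0.69 for the members and 0.56 for all genes, and the pooled SD within groups 0.23 and 0.20. Cyp2e1, which oxidises ethanol and acetaminophen, lay between 15.38 and 15.91 on all 40 arrays. Its log2 changes in the 16 comparisons ran from −0.16 to 0.23, and none was called.

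Without treatment, Cyp2b9, a P450 that in mouse liver is made mainly by females, reached log2 4 in 4 of 4 Nrf2-null mice and in 0 of 4 Wt mice. Of the 31 members, 8 differed between Nrf2-null and Wt vehicle mice, 2 higher and 6 lower, where 10.8% of all genes did, 5.85% higher and 4.97% lower. The vehicle mice of the genotypes did not overlap for 7 of the 31 members, against 12.6% of all genes. The median log2 difference was −0.14 over the members and 0.01 over all genes, with 21 of the 31 members below 0. These counts include Cyp2b9, which passed the expression minimum only through the Nrf2-null groups and had to differ, so they support nothing beyond the genes themselves.

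Cyp2b9 read 10.11, 5.42, 8.22 and 7.30 in Nrf2-null vehicle mice, against 3.63, 3.64, 3.63 and 3.64 in Wt vehicle mice. Every Nrf2-null vehicle mouse lay above every Wt vehicle mouse, and the Nrf2-null mice differed widely among themselves. The log2 difference was 4.13 (SE 0.82). It is given as a description, with no test and no fold, because the Wt values lay under the minimum, at the bottom of the scale, and the gene was kept through the groups in which it was high. Over all treatments Cyp2b9 was at log2 4 or more in 19 of 20 Nrf2-null mice, with a median of 7.98 and a range of 3.05 to 11.36. Among the Wt mice 4 of 20 reached log2 4, with a median of 3.63 and a range of 3.08 to 8.51.

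Cyp2b10, the main target of CAR among the P450 genes and a close relative of Cyp2b9, behaved otherwise between the genotypes. It read 10.25, 8.51, 10.43 and 7.80 in Nrf2-null vehicle mice, against 10.46, 9.91, 9.59 and 10.32 in Wt vehicle mice. The genotypes overlapped, with a pair of Nrf2-null mice below all Wt mice, and the difference of −0.82 (SE 0.50) was not called (adjusted p = 0.31). The same pair of mice was also the lower pair of the Nrf2-null vehicle group for Cyp2b9. It was low as well for Nr1i3, the gene of CAR. Nr1i3 read 8.75, 6.75, 8.67 and 6.53 in Nrf2-null vehicle mice, against 9.39, 9.29, 9.39 and 9.36 in Wt vehicle mice. Nr1i3 was lower in Nrf2-null vehicle liver by a log2 difference of −1.68 (SE 0.36, adjusted p = 2.2e-03). The probe set used for Cyp2b10 holds probes that match more than 1 transcript. The other probe sets of the gene differed from it most in the size of the change with D3T in Nrf2-null liver, −1.38, −1.30 and −2.28 over the 3 probe sets, and with 30 μmol/kg CDDO-Im in Nrf2-null liver, −1.60, −1.60 and −2.54.

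**Figure D1:**
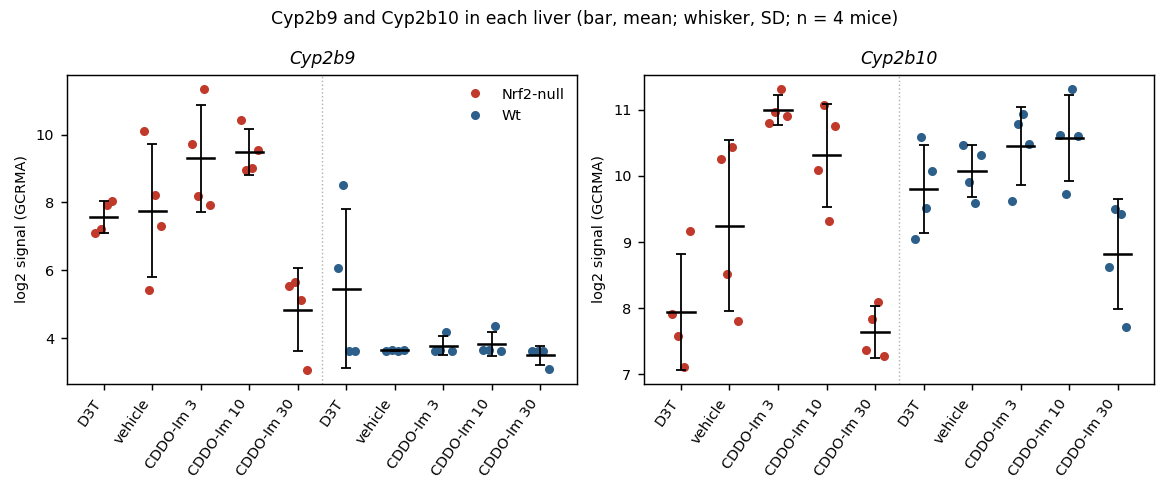
Log2 intensity of Cyp2b9 and Cyp2b10 in each of the 40 mice, with Nrf2-null groups left of the Wt groups and the treatments in the same order within each genotype. Points are mice, bars are group means and whiskers are SD. Cyp2b9 is at log2 4 or more in 19 of 20 Nrf2-null mice and 4 of 20 Wt mice, while the ranges of Cyp2b10 overlap between the genotypes, 7.11 to 11.32 in Nrf2-null mice and 7.72 to 11.32 in Wt mice.

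Among the Cyp2c genes, Cyp2c68 was higher in Nrf2-null vehicle liver and Cyp2c54, Cyp2c70 and Cyp2c50 were lower. Cyp2c68 read 14.09, 14.35, 13.86 and 14.27 in Nrf2-null vehicle mice, against 13.72, 13.54, 13.67 and 13.35 in Wt vehicle mice, with no overlap (0.57, SE 0.13, adjusted p = 5.0e-03). For Cyp2c70, which makes the muricholic acids that are particular to mouse bile, the values were 14.19, 14.58, 14.26 and 14.58 in Nrf2-null vehicle mice, against 15.20, 14.96, 14.93 and 14.72 in Wt vehicle mice (−0.55, SE 0.15, adjusted p = 0.013). All Nrf2-null mice were below all Wt mice for this gene, and neither call was lost without any 1 mouse. Cyp2c54 and Cyp2c50 are epoxygenases of arachidonic acid. Cyp2c54 read 13.91, 12.76, 14.34 and 12.74 in Nrf2-null vehicle mice, against 14.65, 14.12, 14.13 and 14.33 in Wt vehicle mice (−0.87, SE 0.27, adjusted p = 0.036). Cyp2c50 read 15.34, 14.78, 15.31 and 14.65 in Nrf2-null vehicle mice, against 15.45, 15.35, 15.47 and 15.52 in Wt vehicle mice (−0.42, SE 0.11, adjusted p = 0.015). Replicates 2 and 4 of the Nrf2-null mice were the low ones for both genes, as they were for Cyp2b9, Cyp2b10 and Nr1i3. The Cyp2c50 call was lost without either of these replicates (adjusted p of 0.068 to 0.087). The Cyp2c54 call was lost without either of them or without any 1 Wt vehicle mouse (0.052 to 0.15).

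The other members lower in Nrf2-null vehicle liver were Cyp2d13 (−0.55, SE 0.18, adjusted p = 0.039), Cyp2f2, which activates naphthalene (−0.41, SE 0.11, 0.014), and Cyp2a12, a bile acid hydroxylase (−0.33, SE 0.08, 8.3e-03). Cyp2d13 read 11.06, 10.34, 10.76 and 10.71 in Nrf2-null vehicle mice, against 10.98, 11.41, 11.43 and 11.27 in Wt vehicle mice, with only Nrf2-null replicate 1 inside the Wt range. Its call was lost without any 1 of Wt vehicle replicates 2 to 4 or Nrf2-null vehicle replicates 2 to 4 (0.057 to 0.15). That of Cyp2f2 was lost without Nrf2-null vehicle replicate 3 (0.078). Cyp2a12 kept its call without any 1 mouse. When these groups were fitted alone, the calls of all members but Cyp2b9 were lost.

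The best known inducible members did not pass the test between the genotypes. Cyp1a2, an AhR target that oxidises caffeine and arylamines, read 14.67, 13.40, 14.14 and 13.31 in Nrf2-null vehicle mice, against 14.63, 14.29, 14.57 and 14.47 in Wt vehicle mice (−0.61, SE 0.26, adjusted p = 0.12). Here too Nrf2-null replicates 2 and 4 were low, and without Nrf2-null vehicle replicate 1 the difference was called (−0.87, adjusted p = 0.02). Cyp3a11, the main mouse CYP3A enzyme that PXR induces, read 15.75, 15.69, 15.59 and 15.45 in Nrf2-null vehicle mice, against 15.63, 15.68, 15.75 and 15.75 in Wt vehicle mice, which overlapped (−0.08, SE 0.05, adjusted p = 0.35). Cyp2e1 read 15.79, 15.50, 15.67 and 15.38 in Nrf2-null vehicle mice, against 15.73, 15.73, 15.75 and 15.77 in Wt vehicle mice (−0.16, SE 0.06, adjusted p = 0.095).

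**Figure D2:**
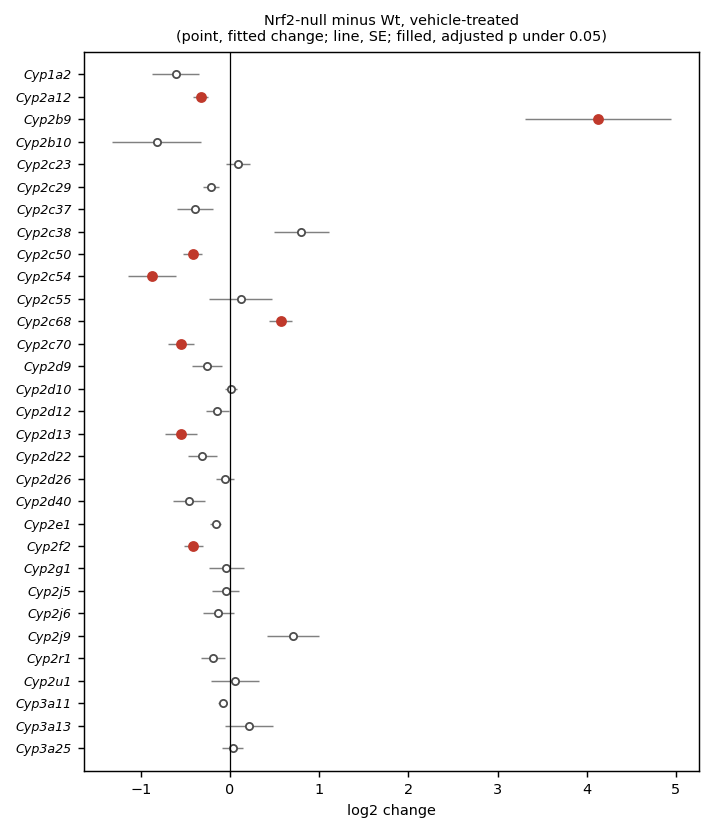
Fitted log2 difference of Nrf2-null minus Wt vehicle mice for the 31 members, with the SE as a line and filled points for an adjusted p under 0.05. Cyp2b9 stands at 4.13, Cyp2c68 at 0.57, and the 6 filled points below 0 run from −0.87 (Cyp2c54) to −0.33 (Cyp2a12).

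Genes around the P450 system differed between the genotypes as well. Of 11 measured genes of other CAR and PXR targets (14 listed), 6 were lower and 0 higher in Nrf2-null vehicle liver, with a median of −0.49, among them the glutathione transferase Gsta2 (−2.72, adjusted p = 2.8e-06), the exporter Abcc3 (−2.32, 2.9e-09) and the sulfotransferase Sult5a1 (−2.45, 1.9e-04). Gsta2 and Abcc3 are known targets of Nrf2 too. Of the 11 receptors and partners, Ppara, the fatty acid receptor, was higher (1.09, adjusted p = 1.2e-03) and Nr1i3 was lower. Of 9 measured genes for electron supply and heme (11 listed), Cyb5a, which passes electrons to P450 enzymes, was lower (−0.19, adjusted p = 4.2e-03), as was Pgrmc1 (−0.20, 0.016). Of 9 measured sex-biased genes outside the families (12 listed), 3 were higher and 1 lower. The acyl-CoA thioesterase Acot3 was higher (2.19, adjusted p = 0.027) and Cyp7b1, an oxysterol hydroxylase that males make more of, was lower (−2.05, 7.7e-03).

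In Wt liver, D3T raised 2 members, Cyp2c38 and Cyp2g1, and lowered 0, where 4.23% of all genes were called, 2.64% higher and 1.59% lower. The D3T and vehicle mice did not overlap for 7 of the 31 members, against 14.1% of all genes, and 9 members had an unadjusted p under 0.05, against 18.6% of all genes. Cyp2c38, another epoxygenase, read 9.48, 9.67, 8.99 and 9.39 in Wt D3T mice, against 7.80, 7.52, 7.88 and 8.14 in Wt vehicle mice. Every treated mouse exceeded every vehicle mouse, and the log2 change of 1.55 (SE 0.31, adjusted p = 3.1e-03) is 2.92-fold. The call was kept without any 1 mouse and with the clock score as a term (1.34, adjusted p = 0.027).

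Cyp2g1, which is known from the olfactory mucosa, was at the bottom of the scale. It read 3.15, 3.62, 2.89 and 3.24 in Wt D3T mice, against 2.27, 2.27, 2.28 and 2.28 in Wt vehicle mice (0.95, SE 0.20). All of these values lay under the minimum of log2 4, which this gene passed only through Wt mice given 10 μmol/kg CDDO-Im. The change is therefore given with no test, though the count of called members holds this gene. It was at log2 2.20 to 2.35 in all 20 Nrf2-null mice.

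The other members did not pass the test with D3T. Cyp2u1, a fatty acid hydroxylase, came closest, at 6.60, 6.59, 7.31 and 6.34 in Wt D3T mice, against 7.33, 7.70, 7.77 and 7.59 in Wt vehicle mice (−0.89, SE 0.27, adjusted p = 0.053). The groups did not overlap, and the change was called without D3T replicate 3 (−1.09, adjusted p = 0.028), with arrays centred (−0.91, 0.045), with quantile normalization again (−0.91, 0.044), with these groups fitted alone (0.036), with the mean of its probe sets (−0.62, 0.045) and, narrowly, with a minimum of log2 6. Cyp2b10 read 9.05, 10.59, 9.51 and 10.07 in Wt D3T mice, against the vehicle values above, and overlapped them (−0.26, SE 0.50, adjusted p = 0.84). Cyp1a2 read 14.06, 14.22, 14.38 and 14.07 with D3T (−0.31, SE 0.26, adjusted p = 0.57). Cyp3a11 read 15.43, 15.48, 15.65 and 15.59 (−0.16, SE 0.05, adjusted p = 0.068), with only replicate 3 inside the vehicle range. Cyp2e1 read 15.63, 15.76, 15.78 and 15.76 (−0.01, SE 0.06). Cyp2b9 was above log2 4 in Wt D3T replicates 1 and 2, at 6.06 and 8.51, and at 3.62 and 3.63 in the other 2 mice (1.82, SE 0.82, adjusted p = 0.22). Of the lists, D3T raised Urod, an enzyme of heme synthesis (0.55, adjusted p = 4.1e-04), and Acot3, Abcd2 and Cyp4a14 of the sex-biased genes, by 4.03, 3.20 and 2.13. The summed level of the 9 measured sex-biased genes went the other way. It was 15.46 to 16.10 in Wt D3T mice, against 16.19 to 16.55 in Wt vehicle mice, with no overlap.

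CDDO-Im at 3 μmol/kg called 0 of the 31 members in Wt liver by limma, where 0.474% of all genes were called. At an unadjusted p under 0.05 there were 4 members, against 10.5% of all genes, and 1 member's mice did not overlap those given vehicle, against 7.96%. At 10 μmol/kg it called 3 members, where 17.5% of all genes were called (5.06% higher, 12.4% lower) and 22.9% did not overlap. Cyp2g1 rose, and Cyp2c70 and Cyp2u1 fell. The mice of 3 members did not overlap those given vehicle. The median change was 0.06 over the members and −0.08 over all genes, with 21 of 31 members above 0.

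Cyp2c70 read 14.37, 14.18, 14.46 and 14.06 in Wt mice given 10 μmol/kg CDDO-Im, against 15.20, 14.96, 14.93 and 14.72 in Wt vehicle mice. The groups did not overlap, and the change of −0.69 (SE 0.15, adjusted p = 1.6e-03) left 0.622 of the vehicle intensity. The fall was not seen at the doses on either side, where Cyp2c70 read 14.94, 14.98, 14.93 and 14.62 at 3 μmol/kg (−0.09) and 14.70, 14.97, 14.81 and 14.86 at 30 μmol/kg (−0.12), neither of them called. Cyp2u1 read 6.92, 6.73, 6.59 and 6.69 at 10 μmol/kg, against 7.33, 7.70, 7.77 and 7.59 with vehicle (−0.87, SE 0.27, adjusted p = 0.024). No mouse overlapped, yet the call was lost without any 1 of Wt vehicle replicates 2 and 3 or of replicates 3 and 4 at 10 μmol/kg (0.051 to 0.069). A second probe set of Cyp2u1, close to the minimum, changed by −0.35. With the clock score as a term, Cyp2c70 changed by −0.18 (adjusted p = 0.64) and Cyp2u1 by −0.31 (0.72). Of all 9695 genes, 33 were called with this term and 1698 without it. The 10 μmol/kg mice held scores of 2.30 to 3.99 and the vehicle mice −2.84 to −2.54, with no overlap.

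Cyp2g1 averaged highest at 10 μmol/kg, of all 10 groups. It read 3.21, 4.06, 4.66 and 4.87, against 2.27 to 2.28 in the Wt vehicle mice (1.93, SE 0.20). At 3 μmol/kg it read 2.28, 2.28, 2.27 and 2.87, and at 30 μmol/kg 2.52, 2.28, 2.58 and 2.34, with neither change called. It is listed among the members because of the group in which it was high, so its rise here and its difference from any other group at this dose are part of how it was chosen and are given with no test, though the counts of called members hold it. The remaining inducible members moved little at this dose. Cyp2b10 read 10.62, 9.73, 11.32 and 10.61 (0.50, adjusted p = 0.53), Cyp1a2 14.75, 14.55, 14.72 and 14.51 (0.14, 0.76), and Cyp3a11 15.70, 15.51, 15.57 and 15.54 (−0.12, 0.11), each overlapping vehicle.

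**Figure D3:**
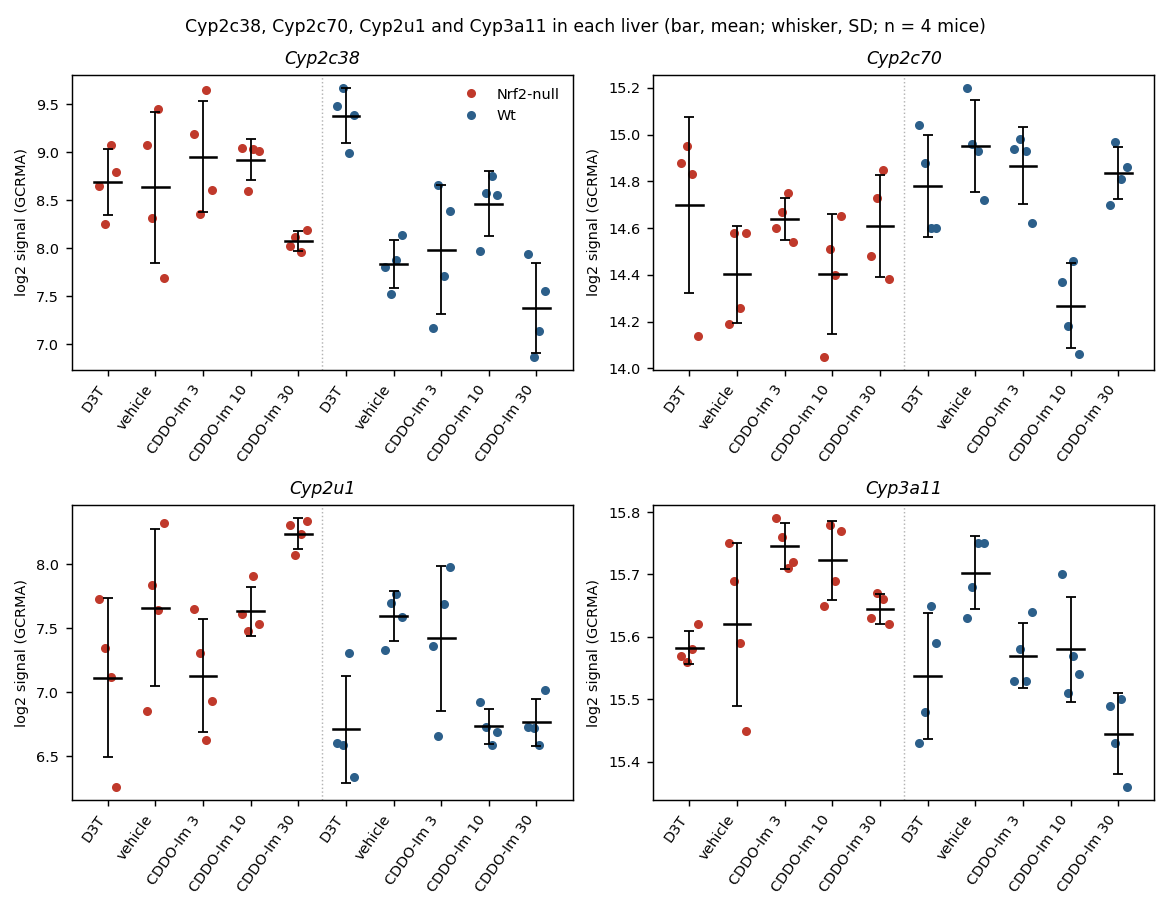
Log2 intensity of Cyp2c38, Cyp2c70, Cyp2u1 and Cyp3a11 in each mouse, with Nrf2-null groups left of the Wt groups. Points are mice, bars are group means and whiskers are SD, and each panel has its own scale. Cyp2c38 averages 9.38 with D3T in Wt mice, against 7.84 with vehicle, Cyp2c70 is lowest at 10 μmol/kg CDDO-Im (14.27), and Cyp2u1 averages 8.24 in Nrf2-null mice and 6.77 in Wt mice at 30 μmol/kg.

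At 30 μmol/kg CDDO-Im, 7 members fell in Wt liver and 0 rose. This is 22.6% of the members, beside 23.6% of all genes called (2.81% higher, 20.8% lower), so the members were called about as often as other genes. The median change of all genes at this dose was −0.16 and that of the members −0.14, with 24 of the 31 below 0, and the changes below are to be read against that shift. No mouse overlapped vehicle for 12 members, against 28.3% of all genes. With arrays centred on their medians, all 7 calls were lost, and Cyp2j6 alone was called, as higher (0.45, adjusted p = 0.048). The probe sets of Cyp2j6 went opposite ways at this dose. Without centring, the one used changed by 0.27 and overlapped vehicle, while a second changed by −0.43 with no overlap.

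Cyp3a11 read 15.49, 15.43, 15.50 and 15.36 in Wt mice given 30 μmol/kg, against 15.63, 15.68, 15.75 and 15.75 in Wt vehicle mice. All treated mice were below all vehicle mice, and the change of −0.26 (SE 0.05, adjusted p = 7.8e-04) left 0.837 of the vehicle intensity. It was kept without any 1 mouse, but was −0.09 (adjusted p = 0.49) after centring. Cyp2c55, which CAR and PXR induce, read 7.95, 7.28, 7.35 and 6.51 at 30 μmol/kg, against 8.21, 8.30, 8.33 and 8.22 with vehicle (−0.99, SE 0.35, adjusted p = 0.037). No mouse overlapped, but the treated mice differed widely, and leaving out any 1 mouse other than CDDO-Im replicate 1 ended the call (0.059 to 0.16). Cyp2u1 read 6.73, 6.72, 6.59 and 7.02, all below the vehicle mice (−0.83, SE 0.27, adjusted p = 0.024). That call was lost without Wt vehicle replicate 2 or 3 or without replicate 2 or 3 at 30 μmol/kg (0.053 to 0.067).

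Smaller falls at 30 μmol/kg were found in 4 further members. Cyp2d13 read 10.82, 10.83, 10.30 and 10.82, against 10.98, 11.41, 11.43 and 11.27 with vehicle (−0.58, SE 0.18, adjusted p = 0.017), and lost its call without Wt vehicle replicate 2 or 3 or without replicate 3 at 30 μmol/kg (0.051 to 0.093). Cyp2c23, an epoxygenase, read 12.53, 12.66, 12.85 and 12.64, against 13.40, 12.97, 13.02 and 12.97 (−0.42, SE 0.13, 0.02), and lost it without replicate 1 of either group (0.055 to 0.1). For Cyp2c68 the treated mice were nearly alike, at 13.21, 13.18, 13.19 and 13.19, against 13.72, 13.54, 13.67 and 13.35 (−0.38, SE 0.13, 0.036), and the call was lost without any 1 mouse other than Wt vehicle replicate 4 (0.052 to 0.11). None of these 3 members had a treated mouse inside the vehicle range. Cyp2d10 fell by a log2 change of −0.24 (SE 0.07, adjusted p = 0.019), and its call was lost without Wt vehicle replicate 2 or replicate 3 at 30 μmol/kg (0.064 to 0.08).

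Cyp2b10 had the largest change of any member at 30 μmol/kg without passing the test. It read 8.62, 9.50, 9.43 and 7.72, all below the 9.59 to 10.46 of the Wt vehicle mice (−1.25, SE 0.50, adjusted p = 0.065), and its 3 probe sets changed by −1.26, −1.25 and −1.26. On the last of these probe sets the treated and vehicle mice overlapped. Cyp1a2 read 14.86, 14.76, 14.41 and 14.72 and overlapped vehicle (0.19, SE 0.26, adjusted p = 0.62). At this dose the PXR gene Nr1i2 was higher (0.65, adjusted p = 2.7e-03) and 3 liver transcription factors were lower: Cebpa (−0.98, 1.4e-03), Foxa2 (−0.85, 0.036) and Nr1h4, the bile acid receptor (−0.55, 8.6e-03). Acute phase genes moved with this group, with 6 of 10 higher and 0 lower and a median of 0.99. Among markers of other cells, 1 of 8 Kupffer genes was higher, Marco (3.49, adjusted p = 4.7e-05), with a summed level of 13.56 to 13.87 at 30 μmol/kg and 13.16 to 13.81 with vehicle. Of 5 measured endothelial genes 1 was lower, Fcgr2b (−0.55, adjusted p = 0.04), with a summed level of 12.25 to 12.44 at 30 μmol/kg and 12.61 to 12.88 with vehicle. Hepatocyte markers had 2 of 8 lower and 0 higher, the lipoprotein Apoa1 (−0.15, adjusted p = 0.029) and the urea cycle enzyme Cps1 (−0.22, 2.8e-03), with a summed level of 18.24 to 18.31 at 30 μmol/kg and 18.34 to 18.37 with vehicle. Of the other CAR and PXR targets, 2 of 11 were higher and 0 lower, with a median of 0.19, Gsta2 (2.08, adjusted p = 1.1e-04) and Abcc3 (0.60, 0.04). The part of these in the P450 values was not tested.

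**Figure D4:**
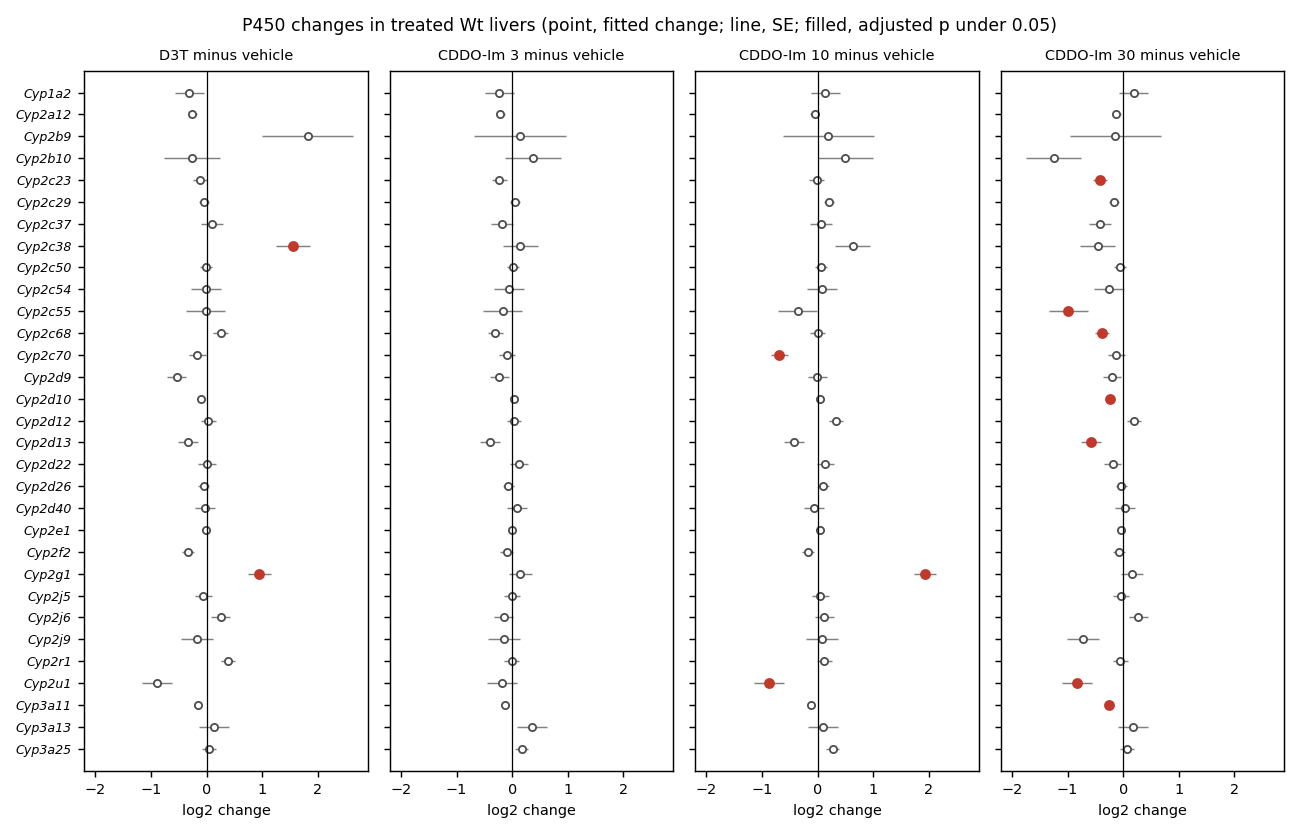
Fitted log2 change from vehicle of the 31 members in Wt liver for D3T and for 3, 10 and 30 μmol/kg CDDO-Im. Lines are SE and filled points have an adjusted p under 0.05. Of the members, 2 are filled with D3T, 0 at 3, 3 at 10 and 7 at 30 μmol/kg, and the median moves to −0.14 at 30 μmol/kg, where that of all genes is −0.16.

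The doses of CDDO-Im were also set against each other and against D3T in Wt liver. These comparisons share mice with those above, and the doses of the compounds differ (10 or 30 against 300 μmol/kg). Between 30 and 10 μmol/kg CDDO-Im, 9 members differed, 1 higher and 8 lower at 30 μmol/kg, where 19.5% of all genes did (5.25% higher, 14.2% lower), and 15 of 31 did not overlap, against 23.8%. Cyp2b10 was lower at 30 μmol/kg by −1.76 (SE 0.50, adjusted p = 0.012), a ratio of 0.296. Every 30 μmol/kg mouse lay below every 10 μmol/kg mouse on the probe set used, while the mice overlapped on another (−1.68). The Cyp2b10 call was lost without replicate 3 at 10 μmol/kg or replicate 4 at 30 μmol/kg (0.056 to 0.066) and with the clock score as a term (−1.28, adjusted p = 0.42). Cyp2c38 was lower by −1.09 (SE 0.31, adjusted p = 0.012) and lost its call without replicate 2 at 30 μmol/kg (0.059). Cyp2c29, which CAR induces, was lower by −0.36 (SE 0.09, adjusted p = 3.2e-03), and Cyp2c70 was higher by 0.57 (SE 0.15, 6.1e-03), both kept without any 1 mouse. Cyp2d10 was lower (−0.27) and kept without any 1 mouse as well. Cyp2g1 (−1.77) is counted in the 9 but was chosen through the 10 μmol/kg group, while Cyp2c23 (−0.40), Cyp2c68 (−0.38) and Cyp2j9 (−0.80) lost their calls without most single mice of the comparison, 5, 6 and 7 of the 8. With the clock score as a term the other 8 lost their calls, and of all 9695 genes 31 were called with the term and 1888 without it.

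Between 10 μmol/kg CDDO-Im and D3T, 5 members differed, where 18.7% of all genes did and where the mice of 6 members, against 22.9% of all genes, did not overlap. Cyp2c38 was lower with CDDO-Im, at 7.97, 8.58, 8.75 and 8.55, against 9.48, 9.67, 8.99 and 9.39 with D3T (−0.92, SE 0.31, adjusted p = 0.035). The mice did not overlap, and the call was lost without any 1 of replicates 1, 2 and 4 of either group (0.052 to 0.13). Cyp2c70 was lower with CDDO-Im as well (−0.51, SE 0.15, adjusted p = 0.014), a call lost without D3T replicate 1 or CDDO-Im replicate 4 (0.056 to 0.067). Cyp2d9, the testosterone hydroxylase that males make more of, was higher with CDDO-Im, at 15.18, 15.21, 15.08 and 15.22, against 14.14, 14.47, 15.01 and 14.93 with D3T (0.53, adjusted p = 0.031). Its call was lost without any 1 of D3T replicates 1 and 2 or CDDO-Im replicates 1, 2 and 4 (0.062 to 0.16), and that of Cyp2c29 (0.24, adjusted p = 0.044) without any 1 mouse other than D3T replicate 4 (0.053 to 0.16). Cyp2g1, the last of the 5, was higher with CDDO-Im (0.97), in the group through which it was chosen. With the clock score as a term, the calls of Cyp2c70, Cyp2d9 and Cyp2c29 were lost (adjusted p of 0.28, 0.18 and 0.16). Of all 9695 genes, 942 were called with the term and 1809 without it. Cyp2d9 and Cyp2c29 were named after their values were seen.

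Between 30 μmol/kg CDDO-Im and D3T, 5 members differed, all lower with CDDO-Im, where 30.6% of all genes differed (4.45% higher, 26.2% lower) and where the mice of 8 members, against 32.3% of all genes, did not overlap. Cyp2c38 differed most, at 7.94, 6.87, 7.14 and 7.55 with CDDO-Im, against 8.99 to 9.67 with D3T (−2.01, SE 0.31, adjusted p = 2.0e-05), a ratio of 0.248. Cyp2c68 was lower by −0.63 (SE 0.13, adjusted p = 6.1e-04), and both were kept without any 1 mouse. Cyp2r1, a vitamin D hydroxylase, was lower with CDDO-Im, at 10.04, 9.79, 9.79 and 9.58, against 10.42, 10.06, 10.21 and 10.23 with D3T (−0.43, SE 0.13, adjusted p = 0.014). The call was lost without D3T replicate 1 or CDDO-Im replicate 4 (0.059 to 0.065). Cyp2c55 was lower by −0.98 (SE 0.35, adjusted p = 0.032) and lost its call without any 1 of D3T replicates 1 and 2 or CDDO-Im replicates 2, 3 and 4 (0.054 to 0.15). Cyp2g1, the last of the 5, was lower too (−0.80), at 2.28 to 2.58 with CDDO-Im, against 2.89 to 3.62 with D3T. All of these values lay under the minimum of log2 4, so the difference is given with no test. The median difference was −0.16 over all genes and −0.09 over the members, with 13 members above 0. With arrays centred on their medians, Cyp2c55 and Cyp2r1 lost their calls (adjusted p of 0.087 and 0.17). Cyp2a12 (0.33, 5.5e-03), Cyp2f2 (0.44, 4.0e-03) and Cyp2d9 (0.52, 0.039) were then called, as higher with CDDO-Im.

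Whether the response to a treatment differed between the genotypes was tested as the Nrf2-null change from vehicle minus the Wt change. For D3T 0 of the 31 members were called by limma, where 0.0722% of all genes were, and 7 members had an unadjusted p under 0.05, where 13.2% of the genes tested did. At 3 μmol/kg CDDO-Im 0 were called (1.72% of all genes), and 3 had an unadjusted p under 0.05 (14.6%). At 10 μmol/kg 2 were called (5.40% of all genes) and at 30 μmol/kg 2 (11.9%). The rise of Cyp2c38 with D3T was not called as different: Cyp2c38 read 8.65, 8.25, 9.08 and 8.79 in Nrf2-null D3T mice, against 9.08, 8.31, 9.45 and 7.69 in Nrf2-null vehicle mice, a change of 0.06 (SE 0.31), and the difference from the Wt change was −1.49 (SE 0.44, adjusted p = 0.14). It was called without Nrf2-null vehicle replicate 4, the lowest of its group (−1.80, adjusted p = 0.046). The difference in the response of Cyp3a11 was likewise called without Nrf2-null vehicle replicate 1, at 3 μmol/kg (0.30, adjusted p = 0.017) and at 10 μmol/kg (0.27, 0.029).

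At 30 μmol/kg the called members were Cyp2u1 and Cyp3a11. Cyp2u1 read 8.31, 8.07, 8.24 and 8.34 in Nrf2-null mice given 30 μmol/kg, against 6.85, 7.84, 7.64 and 8.32 in Nrf2-null vehicle mice (0.58, SE 0.27, adjusted p = 0.46). It fell in Wt liver, and the changes differed by 1.41 (SE 0.38, adjusted p = 0.016). Cyp3a11 read 15.63, 15.67, 15.66 and 15.62 in Nrf2-null mice given 30 μmol/kg, against 15.45 to 15.75 in Nrf2-null vehicle mice (0.03, SE 0.05), and the changes differed by 0.28 (SE 0.07, adjusted p = 0.013). Both calls were kept without any 1 of the 16 mice, that of Cyp3a11 not after centring (adjusted p = 0.52). The same difference was called for genes of other lists. Of the hepatocyte markers 2 of 8 were higher, Alb (0.21, adjusted p = 0.04) and Cps1 (0.26, 0.022), with summed levels of 18.41 to 18.47 at 30 μmol/kg and 18.13 to 18.45 with vehicle in Nrf2-null mice. Of the acute phase genes 4 of 10 were lower, and of the Kupffer genes 1 of 8, Marco (−3.20, adjusted p = 7.4e-03). Of 5 exocrine pancreas markers only Cela1 was measured, and it was higher (2.65, adjusted p = 0.027), at 9.64 to 14.03 at 30 μmol/kg and 9.51 to 10.42 with vehicle in Nrf2-null mice and at 8.68 to 9.02 and 9.76 to 10.09 in Wt mice. The part of these in the values of Cyp2u1 and Cyp3a11 was not tested.

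At 10 μmol/kg Cyp2g1 and Cyp2c70 were called. The change of Cyp2g1 differed by −1.88 (SE 0.28), which follows from its choice through the Wt mice at this dose and its values of 2.20 to 2.35 in Nrf2-null mice, so no test is given. Cyp2c70 read 14.05, 14.51, 14.40 and 14.65 in Nrf2-null mice given 10 μmol/kg, against 14.19, 14.58, 14.26 and 14.58 in Nrf2-null vehicle mice, a change of 0.00. The clock scores of these treated Nrf2-null mice were split, at 1.99, −2.37, 2.33 and −2.55. Cyp2c70 was lower in replicates 1 and 3, which had the high scores. In the Nrf2-null vehicle group it was lowest in replicate 1, the mouse with a high score. The difference from the Wt change, 0.69 (SE 0.21, adjusted p = 0.046), was lost without any 1 of 11 of the 16 mice, which were Nrf2-null CDDO-Im replicates 2, 3 and 4, Nrf2-null vehicle replicates 1 and 3, Wt CDDO-Im replicates 1, 2 and 4 and Wt vehicle replicates 1, 2 and 3 (0.059 to 0.1) and with the clock score as a term (0.31, adjusted p = 0.39), where 304 of all genes were called with the term and 524 without it. Nrf2-null mice without treatment already had lower Cyp2c70 than Wt mice.

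Within Nrf2-null liver, D3T called 2 members, where 4.09% of all genes were called, and 1 member's mice did not overlap vehicle, against 5.30% of all genes. Cyp2j9 read 6.16, 6.07, 6.28 and 5.43 in Nrf2-null D3T mice, against 7.08, 6.86, 7.30 and 7.48 in Nrf2-null vehicle mice, with all treated mice lower (−1.20, SE 0.29, adjusted p = 0.016). Cyp2j6 read 9.92, 10.20, 9.99 and 9.42, against 9.55, 9.09, 8.91 and 9.30 (0.67, SE 0.17, adjusted p = 0.017), with replicate 4 inside the vehicle range. Its call was lost without Nrf2-null vehicle replicate 3 or D3T replicate 2 or 3 (0.056 to 0.071), and a second probe set of the gene changed by 0.05. With these groups fitted alone, the calls of Cyp2j9 and Cyp2j6 were lost (adjusted p of 0.19 and 0.47). In that fit 0 of all 9695 genes were called. Cyp2j9 and Cyp2j6 were named after their values were seen. Cyp2b10 was low with D3T in Nrf2-null liver, at 7.91, 7.58, 7.11 and 9.17 (−1.30, SE 0.50, adjusted p = 0.13), and was called without D3T replicate 4, the array that stood apart (−1.71, adjusted p = 0.043), or without vehicle replicate 4 (−1.79, 0.04). Cyp1a2 read 14.07, 13.85, 13.38 and 12.40 (−0.46, SE 0.26, adjusted p = 0.33), lowest in that replicate.

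CDDO-Im called 0 members in Nrf2-null liver at any dose by limma, where 0.774%, 0.0722% and 0.175% of all genes were called at 3, 10 and 30 μmol/kg. At an unadjusted p under 0.05 there were 4, 6 and 7 members, against 14.7%, 12.9% and 10.1% of all genes. The mice did not overlap those given vehicle for 1 member at 3 μmol/kg, 0 at 10 and 0 at 30 μmol/kg, against 5.24%, 3.46% and 4.02% of all genes. Cyp2b9 and Cyp2b10 varied most over the doses, with group means of 4.84 to 9.49 for Cyp2b9 and 7.64 to 10.99 for Cyp2b10. For Cyp2b10 the Nrf2-null vehicle mice alone spanned 7.80 to 10.43. It read 10.80, 10.96, 11.32 and 10.91 at 3 μmol/kg (1.75, SE 0.50, adjusted p = 0.092), 10.09, 11.07, 9.32 and 10.76 at 10 μmol/kg (1.06, 0.36) and 7.37, 7.83, 8.10 and 7.27 at 30 μmol/kg (−1.60, 0.18). All mice at 3 μmol/kg lay above all vehicle mice, and at 30 μmol/kg 1 vehicle mouse lay inside the treated range. On another probe set of Cyp2b10 (−2.54) no mouse at 30 μmol/kg overlapped those given vehicle. Cyp2b9 read 9.72, 8.19, 11.36 and 7.93 at 3 μmol/kg, 10.43, 8.96, 9.03 and 9.55 at 10 μmol/kg and 5.53, 5.66, 5.12 and 3.05 at 30 μmol/kg, the last a change of −2.92 (SE 0.82, adjusted p = 0.12). Its values at 30 μmol/kg overlapped the lowest vehicle mouse, at 5.42.

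Calls in these comparisons depended on single vehicle mice. Cyp2b10 at 3 μmol/kg was called without vehicle replicate 3 (2.14, adjusted p = 0.033), Cyp2b9 at 30 μmol/kg without replicate 2 (−3.70, 0.042) and Cyp2b10 at 30 μmol/kg without replicate 4 (−2.08, 0.042). Without Nrf2-null vehicle replicate 1, the mouse with a high clock score, 2 members were called at 3 μmol/kg, Cyp2b10 (2.08, adjusted p = 0.024) and Cyp2c50 (0.40, 0.047), and 3 at 10 μmol/kg, Cyp1a2 (0.85, 0.037), Cyp2c50 (0.41, 0.027) and Cyp2e1 (0.30, 4.8e-03), all of them higher. Cyp1a2 read 14.67, 14.37, 14.16 and 14.52 at 3 μmol/kg and 14.44, 14.49, 14.36 and 14.59 at 10 μmol/kg in Nrf2-null mice, inside the range of 13.31 to 14.67 of the vehicle mice. At 30 μmol/kg it read 13.57, 13.27, 14.14 and 13.14 (−0.35, SE 0.26, adjusted p = 0.73).

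**Figure D5:**
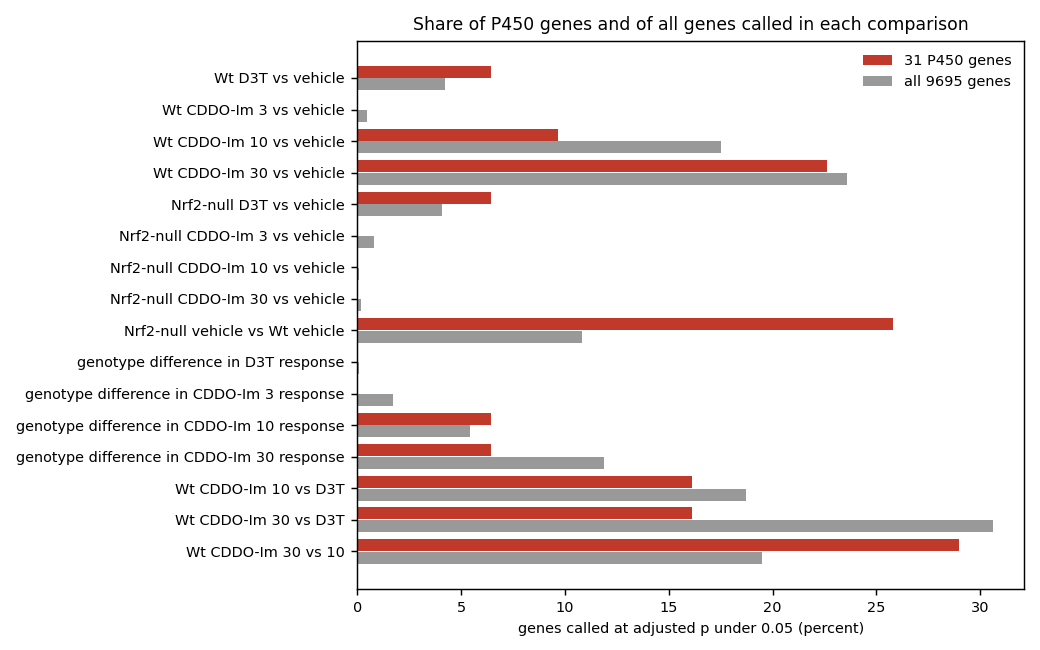
Share called at an adjusted p under 0.05 in each of the 16 comparisons, for the 31 members and for all 9695 genes, in percent. The members lie above all genes for Nrf2-null against Wt vehicle (25.8% and 10.8%) and below all genes for 30 μmol/kg CDDO-Im against D3T in Wt liver (16.1% and 30.6%), where 1 member is 3.23%. The 25.8% includes Cyp2b9, which passed the minimum only through Nrf2-null groups. With the vehicle groups fitted alone, only Cyp2b9 kept its call, and 244 of all 9695 genes were called.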

How the data were processed

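The deposited table holds log2 intensities for 45037 probe sets of an Affymetrix mouse array, which the authors computed with GCRMA (background by probe sequence, quantile normalization, median polish). The version of GCRMA is not given in the sources used here. No further normalization was applied. Groups came from the sample labels, and the replicates are separate mice, whose number limits the precision.

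The expression minimum left 18935 probe sets, 16472 with 1 symbol. Symbols came from the platform annotation, in which 34945 probe sets carried 1 symbol, 932 several and 9160 none listed here, and 34741 of the first matched the mouse gene table by identifier with 0 symbols changed. Of the members, 6 had several kept probe sets. Changes were fitted in R 4.3.3 (limma 3.58.1, with statmod 1.5.0) in 1 model of 10 groups, with eBayes (trend, robust) and Benjamini-Hochberg adjustment over 9695 genes at 0.05, and 16 contrasts were taken. The limma script was tested on simulated data with known changes. Tables, exact tests and plots used Python 3.11.15, NumPy 2.4.6, pandas 2.3.3, SciPy 1.17.1 and Matplotlib 3.10.9. A list's summed level is the log2 of the sum of its members' unlogged values.

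The members and lists were chosen with earlier results of these data known. Values per mouse were given for the 4 called members of largest rise and of largest fall. This was done in each Wt treatment comparison and between the vehicle groups. They were also given for members whose response differed between genotypes and, in some of the groups, for Cyp1a2, Cyp2b10, Cyp2e1 and Cyp3a11. Cyp1a1 had been chosen as well but did not reach the minimum. Alternatives were no minimum or log2 6, arrays centred, quantile normalization again, no trend and not robust, the compared groups alone, a replicate block, the mean of a gene's probe sets, exact Wilcoxon tests and leaving out each mouse. A clock term and the removal of 2 arrays were added after seeing the data.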

Additional observations from a re-analysis of the deposited data

Results flagged for a closer look

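Of the 310 sets of 4 mice tested (31 members in 10 groups), 23 had a mouse flagged by Dixon's test. Its gap to the nearest other mouse, divided by the range of the group, exceeded the 95% critical value for 4 values. Chance flags about 1 in 20. In 19 of them the group spanned 0.25 or more on the log2 scale. Nrf2-null D3T replicate 4, the array that stood apart, was the mouse in 6: it read 12.51 for Cyp2c54, 14.14 for Cyp2c70, 13.98 for Cyp2d26, 5.22 for Cyp2d40, 13.30 for Cyp2j5 and 14.73 for Cyp3a13. For Cyp3a13 it was the highest mouse of its group and for the other 5 genes the lowest. The group spanned only 0.14 for Cyp2d26 and 0.21 for Cyp2d40.

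In Wt liver Cyp2b9 was far from its group in single mice, at 4.35 in replicate 3 at 10 μmol/kg CDDO-Im, 4.19 in replicate 3 at 3 μmol/kg and 3.08 in replicate 4 at 30 μmol/kg. Wt replicate 4 at 3 μmol/kg CDDO-Im stood apart for Cyp2c70 (14.62), Cyp2g1 (2.87) and Cyp2j9 (7.17). At 30 μmol/kg, Wt replicate 3 did so for Cyp2d13 (10.30) and Wt replicate 2 for Cyp2j9 (5.32). With D3T, Wt replicate 4 was flagged for Cyp2f2 (14.32), in a group that spanned only 0.19. Wt vehicle replicate 1 was high for Cyp2c23 (13.40), and the fall of Cyp2c23 at 30 μmol/kg was not called without this mouse.

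In Nrf2-null liver at 10 μmol/kg CDDO-Im, replicate 2 stood apart for Cyp2c23 (13.01) and Cyp2c38 (8.60) and replicate 1 for Cyp2f2 (14.15). Nrf2-null vehicle replicate 3 was low for Cyp2f2 (14.01), and the genotype difference of Cyp2f2 was not called without it. Replicate 3 at 30 μmol/kg stood apart for Cyp2j9 (7.07), and replicate 3 at 3 μmol/kg for Cyp3a13 (13.49). Replicate 3 at 30 μmol/kg was also flagged for Cyp2g1 (2.27), in a group at the bottom of the scale that spanned only 0.07.

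The response to CDDO-Im differed between the genotypes, by limma's test of the difference itself, in 4 cases given as the Nrf2-null change minus the Wt change. These were Cyp2c70 (0.69) and Cyp2g1 (−1.88) at 10 μmol/kg and Cyp2u1 (1.41) and Cyp3a11 (0.28) at 30 μmol/kg. Cyp2g1 was chosen through the Wt mice at 10 μmol/kg, so its difference follows from that choice. In Cyp2u1 the 4 Wt mice given 30 μmol/kg lay below all Wt vehicle mice, and the 4 Nrf2-null mice lay at or above 8.07, where Nrf2-null vehicle mice ran from 6.85 to 8.32.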

How the results depend on the processing

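Of 45 called changes of members, 0 changed direction under any alternative, 21 were kept without any 1 mouse, and 10 were kept under every alternative that tested them and without any mouse. Among the 10 were Cyp2c38 with D3T, Cyp2c38 and Cyp2c68 between 30 μmol/kg CDDO-Im and D3T, and the genotype difference of Cyp2u1 at 30 μmol/kg. The rest were calls of Cyp2b9 and Cyp2g1, which passed the minimum only through groups in which they were high, so they add no support. A minimum of log2 6 tested 39 of the 45 calls, as Cyp2g1 did not reach it. Calls ended for 17 of the 45 with arrays centred, 14 with the clock score as a term, 13 with the compared groups fitted alone, 12 with no expression minimum, 9 with quantile normalization again, 3 with no trend and not robust and 2 with the mean of the probe sets.

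Counts of called members that moved by more than 1.5 times were as follows. For Wt D3T (2 called) it was 4 with quantile normalization, 5 with these groups alone and 7 by the Wilcoxon test, which is not adjusted. At 3 μmol/kg CDDO-Im in Wt (0) it was 1 by Wilcoxon, and at 10 μmol/kg (3) it was 1 with the clock term. At 30 μmol/kg (7) it was 1 with arrays centred, 2 with quantile normalization, 11 with these groups alone and 12 by Wilcoxon. For Nrf2-null D3T (2) it was 0 with these groups alone and 1 with the mean of probe sets or by Wilcoxon. For Nrf2-null CDDO-Im it was 1 by Wilcoxon at 3 μmol/kg (0 called), and 5 at 3 and 4 at 10 μmol/kg (0 called) with Nrf2-null vehicle replicate 1 and Nrf2-null D3T replicate 4 left out together. Between the vehicle groups (8) it was 1 with these groups alone. For the difference in response between genotypes it was 2 at 3 μmol/kg (0) and 4 at 10 μmol/kg (2) without those 2 arrays. It was 1 at 10 μmol/kg with no minimum, a minimum of log2 6, arrays centred, no trend, these groups alone or the clock term, and 1 at 30 μmol/kg (2) with arrays centred. For 10 μmol/kg CDDO-Im against D3T (5) it was 2 with no minimum or the clock term. For 30 μmol/kg against D3T (5) it was 3 with quantile normalization, 10 with these groups alone and 8 by Wilcoxon. For 30 against 10 μmol/kg (9) it was 4 with arrays centred, 15 by Wilcoxon and 1 with the clock term. The cause was not tested.

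Leaving out 1 mouse at a time gave counts of 2 to 5 for Wt D3T (5 without D3T replicate 3), 0 to 0 at 3, 2 to 4 at 10 and 2 to 6 at 30 μmol/kg CDDO-Im in Wt (4 without vehicle replicate 1 or CDDO-Im replicate 2, 3 without vehicle replicate 3, 2 without vehicle replicate 2 or CDDO-Im replicate 3). In Nrf2-null liver they were 1 to 4 for D3T (1 without D3T replicate 2 or 3, 4 without replicate 4), 0 to 2 at 3 (1 without vehicle replicate 3), 0 to 3 at 10 and 0 to 1 at 30 μmol/kg (1 without vehicle replicate 2 or 4). Between the vehicle groups they were 5 to 11 (5 without Nrf2-null replicate 2). For the difference in response they were 0 to 1 for D3T (1 without Nrf2-null vehicle replicate 4), 0 to 1 at 3 (1 without Wt CDDO-Im replicate 4 or Nrf2-null vehicle replicate 1), 1 to 2 at 10 (1 without Wt vehicle replicate 1, 2 or 3, Wt CDDO-Im replicate 2 or 4, Nrf2-null vehicle replicate 3 or Nrf2-null CDDO-Im replicate 2, 3 or 4) and 2 to 3 at 30 μmol/kg. They were 1 to 5 for 10 μmol/kg against D3T (1 without D3T replicate 1 or CDDO-Im replicate 4, 2 without D3T replicate 2, 3 without CDDO-Im replicate 1 or 2), 3 to 7 for 30 μmol/kg against D3T (3 without D3T replicate 1 or CDDO-Im replicate 4) and 5 to 8 for 30 against 10 μmol/kg (5 without 30 μmol/kg replicate 2 or 4).

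With the replicate number as a block, all counts stayed as they were and 45 of 45 calls were kept. Mice of the same number did not deviate together (median correlation 0.00 over 180 pairs, −0.32 to 0.37), so the numbers only name the animals and no pairing was used. With 4 mice per group, no exact test of 4 against 4 can pass below 0.029, and members near the floor of the scale (Cyp2b9 in Wt, Cyp2g1) carry little information on their size of change.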
